A study of Mus musculus with 14 samples.

Results

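The midbrain and hindbrain patterning genes described here are Otx2, Gbx2, Wnt1, Fgf8, Lmx1b, En1, En2, Pax2, Pax5 and Pax8, 10 genes that were read from 10 of the 67811 loci in the deposited tables. Polyadenylated RNA had been profiled in whole heads of C57BL/6J mouse embryos at E12.5. The genotypes were Zcchc8-/- (KO, 6 libraries), Zcchc8+/- (HET, 3 libraries) and Zcchc8+/+ (WT, 5 libraries), and no treatment is listed. The sources used here do not state what kind of Zcchc8 allele was used. Nothing in the labels shows that libraries came from separate embryos, so the spread behind every p-value may be partly technical.

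The 10 genes were listed by name, and 16 loci carried one of the names. Where a name stood on several loci, the locus was chosen by its mean level over the libraries, the highest being taken, so levels are given as a description. The chosen locus had a mean of 3.38 FPKM (fragments per kilobase of transcript, scaled to the fragments of the library) for Pax2, against 0.57 FPKM at the next locus. For Pax5 these means were 3.52 and 0.858 FPKM, for Pax8 2.65 and 0.0147 FPKM, for Wnt1 1.12 and 0.182 FPKM, and for Lmx1b 12.9 and 6.39 FPKM. All 10 chosen loci had at least 0.5 FPKM in every library, and each was among the 18217 loci tested.

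The boundary between midbrain and hindbrain is set where OTX2 in the forebrain and midbrain meets GBX2 in the anterior hindbrain. Cells at this border, the isthmic organizer, secrete WNT1 on the midbrain side and FGF8 on the hindbrain side, and these ligands pattern the midbrain and the cerebellum. LMX1B, the paired-box factors PAX2, PAX5 and PAX8 and the engrailed factors EN1 and EN2 start or maintain the expression of the ligands there. Zcchc8 encodes a zinc-knuckle protein of the NEXT complex, through which short-lived nuclear RNAs such as promoter upstream transcripts are delivered to the RNA exosome.

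Zcchc8 RNA followed the labels. Its level was 15.5 ± 3.91 FPKM in KO heads (SD, n = 6), 25.7 ± 1.64 FPKM in HET heads (n = 3) and 39.7 ± 2.32 FPKM in WT heads (n = 5), and no 2 genotypes overlapped. The difference on the log2(FPKM + 0.1) scale was -1.39 for KO against WT (SE 0.15, adjusted p = 2.11e-06, limma) and -0.77 for KO against HET (adjusted p = 0.00381), while HET against WT (-0.62, adjusted p = 1) did not pass. Total depth is unknown, since the files hold no counts, but 28310 to 32667 loci were above 0 in KO, 27341 to 27717 in HET and 26902 to 27622 in WT libraries. Genes of neural progenitors and neurons summed to 550.1 to 673 FPKM in KO, 584 to 621 FPKM in HET and 554 to 640.3 FPKM in WT libraries, so neural RNA was present in every one. The libraries differed in the level of hindbrain and neck genes. The summed level of the Hox code (HOX genes that mark the hindbrain and neck, with other hindbrain factors such as Egr2) was 8.2 to 102 FPKM in KO, 26.5 to 68.4 FPKM in HET and 37.5 to 72.6 FPKM in WT libraries. Its median log2 level relative to the WT mean was -2.84 in KO1 and -3.84 in KO2, lower than in any other library, and Hoxc4 was listed at 0 in both. Results below are therefore also given without KO1 and KO2 where that changes a call, an alternative chosen after the data had been seen.

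Pax5 and En2 were higher in KO heads than in WT and in HET heads, and the other 8 genes did not pass the test. In KO against WT, 2 of the 10 genes passed at an adjusted p under 0.05, both higher, by limma with Benjamini-Hochberg adjustment over all tested loci. Over all 18217 loci 24.6% passed in either direction, 19% higher and 5.61% lower, and the share among the 10 genes is close to this background. The background depends on the filter. Among 15354 loci with a mean of at least 1 FPKM, which all 10 genes reach, 12.2% passed, 1248 higher and 631 lower. There 2 of the 10 genes were called as well, and the distance to either share was not tested. The median difference of the 10 genes was 0.10 on the log2(FPKM + 0.1) scale, beside -0.0019 over all tested loci, with 7 differences above 0 and 3 below. In KO against HET 2 of 10 passed, both higher (background 17.9% higher, 4.36% lower, 22.3% in either direction), with a median difference of 0.14 beside 0.015 over all loci. With the filter of at least 1 FPKM on the mean, 1 of the 10 passed in KO against HET, beside 10.3% of loci. In HET against WT limma called 0 of 10, with 0 at an unadjusted p under 0.05, and it called 0.00549% of all loci, with 354 loci at an unadjusted p under 0.05. Groups did not overlap in 1 gene of KO against WT, where the libraries of 15.3% of loci lay wholly higher and of 1.99% wholly lower, and in 2 genes of KO against HET, beside 17.7% and 5.19% of loci. In HET against WT it was 0 genes, beside 1.05% and 1.43% of loci. KO against WT and KO against HET share the KO libraries, so their results are not independent. In whole heads, fewer cells of a type and less RNA per cell cannot be told apart.

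**Figure D1:**
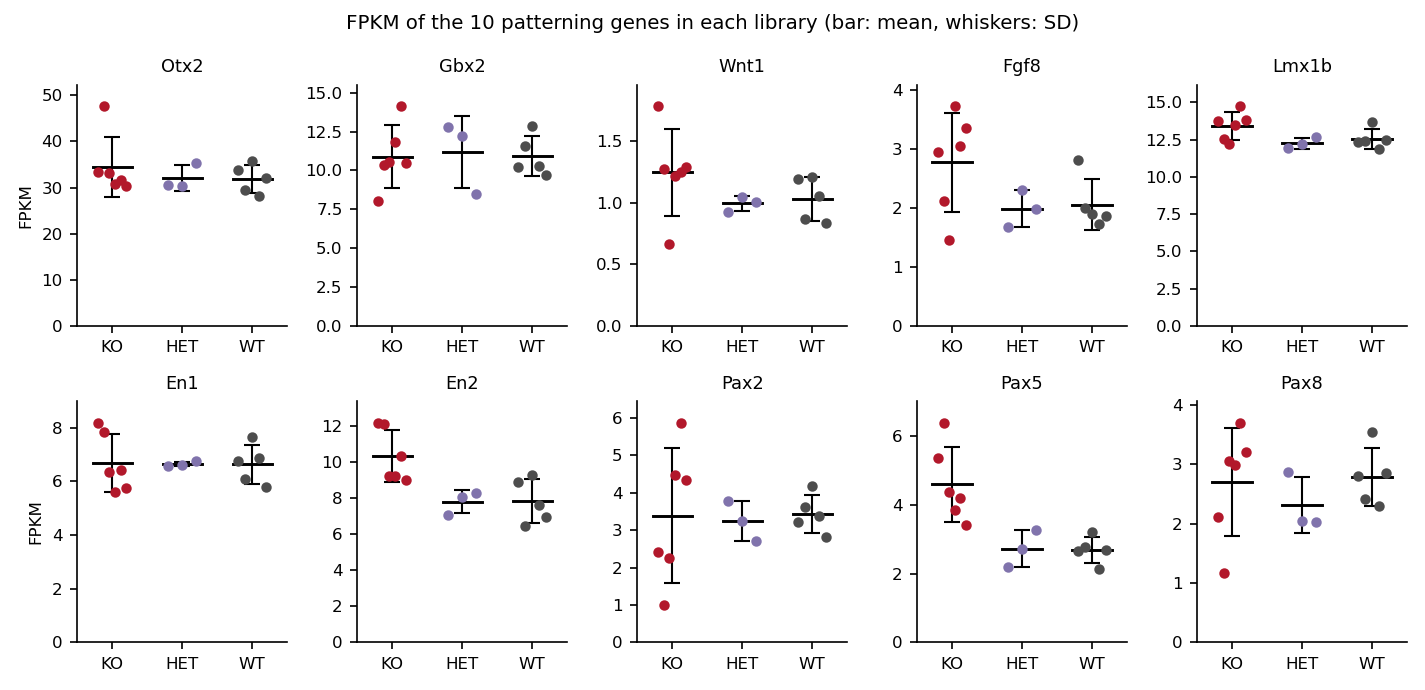
FPKM of the 10 patterning genes in each library, by genotype, with the mean as a bar and the SD as whiskers. All 6 KO libraries lie above all WT libraries for Pax5, KO and HET libraries do not overlap for En2, and KO libraries spread from 1 to 5.86 FPKM for Pax2.

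The level of the 10 genes spanned from 1.03 ± 0.176 FPKM (Wnt1) to 31.8 ± 3.05 FPKM (Otx2) in WT heads (SD, n = 5). The order of the WT means was Otx2, Lmx1b, Gbx2, En2, En1, Pax2, Pax8, Pax5, Fgf8 and Wnt1. Lmx1b and Gbx2 overlapped between WT libraries, as did En2 and En1, and each neighbouring pair from Pax2 to Fgf8. Within libraries, Lmx1b lay above Gbx2 and En2 above En1 in 5 of 5 WT heads, and Pax2 above Pax8, Pax8 above Pax5 and Pax5 above Fgf8 in 4 of 5 each, with no test. The place of Lmx1b rests on the locus chosen for it. Its other locus had a WT mean of 6.32 FPKM, which would put it between En1 (6.62 FPKM) and Pax2. In KO heads the mean of Pax5, 4.6 FPKM, stood above those of Pax2 and Pax8, 3.39 and 2.7 FPKM.

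The promoters of En1, Gbx2 and Pax5 are shown because a neighbouring locus beside En1 and a plus-strand locus that shares the listed range of Gbx2 changed, as described below, and because Pax5 changed most. The sequences are the bases upstream of the annotated exons, from RefSeq (GRCm38.p6), in which 8 of the 10 genes had a promoter entry. En2 and Fgf8 had none. They read 5′ to 3′ on the strand of the gene. Capitals mark matches to CCAAT (or its reverse complement) in En1 and to the GC box GGGCGG (or its reverse complement) in the other two sequences.
En1 (chr1:120602237-120602417, plus strand): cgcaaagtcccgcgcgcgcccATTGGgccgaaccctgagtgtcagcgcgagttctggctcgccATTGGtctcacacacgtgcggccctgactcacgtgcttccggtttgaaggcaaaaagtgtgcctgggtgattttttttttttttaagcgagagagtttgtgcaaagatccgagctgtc
Gbx2 (chr1:89931180-89931426, minus strand): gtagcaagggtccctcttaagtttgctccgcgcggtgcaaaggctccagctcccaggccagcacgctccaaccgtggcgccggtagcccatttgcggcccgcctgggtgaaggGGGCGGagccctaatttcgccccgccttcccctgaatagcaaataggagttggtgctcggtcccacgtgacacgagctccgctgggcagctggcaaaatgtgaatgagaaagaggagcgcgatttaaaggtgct
Pax5 (chr4:44710695-44710944, minus strand): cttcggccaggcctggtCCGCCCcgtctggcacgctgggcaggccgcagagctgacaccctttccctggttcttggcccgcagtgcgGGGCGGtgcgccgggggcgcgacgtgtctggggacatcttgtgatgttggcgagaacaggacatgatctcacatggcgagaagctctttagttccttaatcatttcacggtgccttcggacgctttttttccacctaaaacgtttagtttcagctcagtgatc

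The En1 window of 181 bases held 2 matches to CCAAT on either strand, and 25.2% of 32817 RefSeq promoters held at least 1 in a window of that length. The Pax5 window of 250 bases held 2 matches to GGGCGG and the Gbx2 window of 247 bases held 1, against shares of 32.7% and 32.3% of promoters. The TATA box TATAAA, the homeodomain core TAATTA and the polyadenylation signal AATAAA, searched on both strands, had no match in these 3 windows. None of the 5 motifs contains another. A match describes letters and is not a site of binding, and no match says only that these letters are not in the window.

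Of the factors that set the border, neither passed the test. Otx2 (chromosome 14, 48657677 to 48673819, minus strand, mm10) is read from a locus that also carries the name RP23-131O4.5 and whose range runs on to 48983678. It had 30.4, 32.3 and 47.6 FPKM (lowest, median and highest) in KO heads, 30.5, 30.4 and 35.3 FPKM in HET heads, and 33.7, 29.5, 35.7, 28.2 and 32.1 FPKM in WT heads. KO2 alone stood above all other libraries, and the other KO libraries lay within the WT range. The difference between KO and WT was 0.10 (95% interval -0.12 to 0.32, adjusted p = 0.554, limma), and -0.01 without KO1 and KO2.

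Gbx2 (chromosome 1, 89927956 to 89931179, minus strand) had 8.05, 10.5 and 14.1 FPKM in KO heads, 12.8, 12.2 and 8.5 FPKM in HET heads, and 10.2, 11.6, 12.9, 10.3 and 9.71 FPKM in WT heads. The 3 genotypes overlapped, and KO1 was the lowest and KO5 the highest of all libraries. The difference between KO and WT was -0.02 (-0.30 to 0.27, adjusted p = 0.948).

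The ligands had higher means in KO than in WT heads without passing the test, and the difference of Wnt1 turned to -0.43 after quantile normalization. Fgf8 (chromosome 19, 45736798 to 45742915, minus strand) had 1.46, 3 and 3.72 FPKM in KO heads, 1.68, 2.31 and 1.98 FPKM in HET heads, and 2.81, 2, 1.89, 1.72 and 1.86 FPKM in WT heads. 4 of the 6 KO libraries lay above every WT library, KO2 lay within the WT range, and KO3 was the lowest of all libraries. The difference was 0.37 (-0.07 to 0.81, adjusted p = 0.222, limma) for KO against WT and 0.41 (-0.10 to 0.92, adjusted p = 0.27) for KO against HET. Without KO3 the difference to WT was 0.54 and passed, at an adjusted p of 0.0205, so KO3 decides this call. With libraries weighted by their fit it was 0.58, at an adjusted p of 0.0196.

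Wnt1 (chromosome 15, 98789857 to 98793837, plus strand) was the lowest of the 10 genes, at 0.669, 1.26 and 1.78 FPKM in KO heads, 0.928, 1.05 and 1.01 FPKM in HET heads, and 1.19, 0.868, 1.21, 1.06 and 0.834 FPKM in WT heads. KO3 lay below and the other 5 KO libraries above every WT library. The difference between KO and WT was 0.22 (-0.17 to 0.61, adjusted p = 0.447, limma), and the smallest adjusted p with 1 library left out was 0.0558. The deviations of Fgf8 and Wnt1 from their genotype means had a Pearson r of 0.66 over the 14 libraries and 0.82 over 12 without KO1 and KO2, a description in which both genes share KO3 as a low library.

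Lmx1b, a LIM-homeodomain factor of the isthmus that is also needed by dopamine and serotonin neurons, did not pass the test at either of its loci. The chosen locus carries the names Lmx1b and RP23-65G6.4 and stands among loci of the plus strand, while the gene lies on the minus strand (chromosome 2, 33560965 to 33640511). It had 12.2, 13.6 and 14.7 FPKM in KO heads, 11.9, 12.2 and 12.7 FPKM in HET heads, and 12.4, 12.4, 13.7, 11.9 and 12.46 FPKM in WT heads. The genotypes overlapped, and the difference between KO and WT was 0.09 (-0.03 to 0.21, adjusted p = 0.263, limma). The locus that stands among minus-strand loci under the name Lmx1b alone had 4.98, 7 and 7.36 FPKM in KO heads, 5.95, 5.74 and 6.13 FPKM in HET heads, and 7.05, 6.07, 7.05, 5.54 and 5.89 FPKM in WT heads. Its difference between KO and WT was 0.07 (-0.14 to 0.29, adjusted p = 0.661). Pax2, Pax5, Pax8 and Wnt1 also had loci on both strands, and there the locus on the gene's own strand had the higher mean, unlike at Lmx1b. No source used here states the strand setting of the counting, so which of the loci holds the Lmx1b messenger cannot be settled.

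Of the engrailed genes, En2 passed the test and En1 did not. En1 and En2 encode related homeodomain factors, and En2 follows En1 in the embryo. En2 (chromosome 5, 28165694 to 28172166, plus strand) averaged 10.3 ± 1.45 FPKM in KO heads (SD, n = 6), 7.79 ± 0.647 FPKM in HET heads (n = 3) and 7.82 ± 1.22 FPKM in WT heads (n = 5). The libraries had 9.03, 9.78 and 12.2 FPKM (lowest, median and highest) in KO, 7.06, 8.06 and 8.26 FPKM in HET, and 8.86, 6.43, 9.28, 7.59 and 6.96 FPKM in WT heads. KO1 and KO2 were the highest, all KO libraries lay above all HET libraries, and 3 of the 6 lay above every WT library. En2 was higher in KO than in WT by 0.40 (SE 0.11, 95% interval 0.17 to 0.64, adjusted p = 0.0127, limma) and higher in KO than in HET by 0.40 (SE 0.13, 0.12 to 0.67, adjusted p = 0.0361). The KO against WT call did not hold without KO1 and KO2 (0.28, adjusted p = 0.0689). The KO against HET call was lost without those 2 libraries (0.28, adjusted p = 0.119), and under 10 further settings, among them leaving out any HET library, KO1, KO2 or KO5.

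En1 (chromosome 1, 120602418 to 120607992, plus strand) had 5.6, 6.37 and 8.17 FPKM in KO heads, 6.58, 6.6 and 6.74 FPKM in HET heads, and 6.77, 6.08, 7.63, 6.87 and 5.77 FPKM in WT heads. The genotypes overlapped, with KO1 and KO2 above every WT library and KO4 and KO6 below every one. The difference between KO and WT was 0.00 (-0.21 to 0.22, adjusted p = 0.98), and the interval leaves out the En2 difference of 0.40. The difference between the 2 differences was not tested. En1 and En2 still varied together between libraries of one genotype, with a Pearson r of their deviations of 0.87 over 14 libraries and 0.78 over 12.

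Of the paired-box genes, Pax5 passed the test and Pax2 and Pax8 did not. PAX5 acts with PAX2 at the midbrain-hindbrain border and is the factor that commits lymphoid cells to the B lineage. Pax5 (chromosome 4, 44524757 to 44710487, minus strand) averaged 4.6 ± 1.09 FPKM in KO heads (SD, n = 6), 2.73 ± 0.538 FPKM in HET heads (n = 3) and 2.7 ± 0.384 FPKM in WT heads (n = 5). The libraries had 3.42, 4.29 and 6.39 FPKM in KO, 2.2, 2.73 and 3.27 FPKM in HET, and 2.65, 2.78, 3.23, 2.15 and 2.68 FPKM in WT heads. All 6 KO libraries lay above every HET and every WT library, as they did at 15.3% of all tested loci against WT and at 17.7% against HET. The ratio of the mean FPKM was 1.71 against WT and 1.68 against HET. The difference was 0.73 (SE 0.15, 0.40 to 1.06, adjusted p = 0.00188, limma) in KO against WT and 0.72 (SE 0.18, 0.34 to 1.1, adjusted p = 0.00766) in KO against HET. In KO against WT it passed under each of the 26 alternatives, with adjusted p of at most 0.0147, and was 0.54 (adjusted p = 0.00773) without KO1 and KO2. The call in KO against HET was lost without HET3 (0.58, adjusted p = 0.0673).

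A second Pax5 locus, among loci of the opposite strand, had 0.97 ± 0.379 FPKM in KO, 0.775 ± 0.171 FPKM in HET and 0.774 ± 0.133 FPKM in WT heads, and did not pass (0.21, adjusted p = 0.592). Of the B-cell genes set beside Pax5, 1 of 6 tested was higher in KO than in WT and 0 were lower. Over all tested loci these shares were 19% and 5.61%. The summed level of that list was 80.9 to 97.9 FPKM in KO, 80.4 to 85.7 FPKM in HET and 82.4 to 93.0 FPKM in WT libraries, most of it from Ebf1 and from the loci of Cd79a (with Arhgef1) and Rag1. Vpreb1, part of the pre-B-cell receptor, averaged 0.438 FPKM in KO, 0.611 FPKM in HET and 0.623 FPKM in WT heads (-0.41, adjusted p = 0.235). Rag2, a recombinase subunit of lymphocytes, was the list member that rose, to 0.459 to 0.964 FPKM in KO heads, against 0.00983 to 0.0263 FPKM in HET heads and 0.0164 to 0.0739 FPKM in WT heads. Its difference to WT was 2.52 (adjusted p = 1.18e-07, limma). Rag2 met the filter of 0.5 FPKM in at least 3 libraries through KO libraries alone, so this p-value is no independent support. Whether B cells had a part in the Pax5 result was not tested.

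Pax2 (chromosome 19, 44756045 to 44837871, plus strand), the earliest of the 3 factors at the border and a gene of the ear and the optic stalk, did not differ beyond its spread. It had 1, 3.37 and 5.86 FPKM in KO heads, 3.78, 3.25 and 2.71 FPKM in HET heads, and 3.21, 3.62, 4.18, 3.37 and 2.81 FPKM in WT heads. 3 KO libraries lay above and 3 below the WT range, and KO2 was the lowest of all. The coefficient of variation was 53.0% in KO against 14.9% in WT heads. The difference was -0.21 (-0.94 to 0.53, adjusted p = 0.724, limma), and 0.23 without KO1 and KO2.

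Pax8 (chromosome 2, 24420560 to 24475599, minus strand), also a factor of the ear and the thyroid, had 1.17, 3.02 and 3.69 FPKM in KO heads, 2.86, 2.05 and 2.03 FPKM in HET heads, and 2.79, 2.42, 3.54, 2.3 and 2.84 FPKM in WT heads. KO2 was again the lowest library, and the genotypes overlapped. The difference was -0.11 (-0.61 to 0.39, adjusted p = 0.798) in KO against WT, and without KO1 and KO2 it was 0.22 (adjusted p = 0.286). In KO against HET it passed without those 2 libraries (0.48, adjusted p = 0.0414) but not with them (0.15, adjusted p = 0.774).

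**Figure D2:**
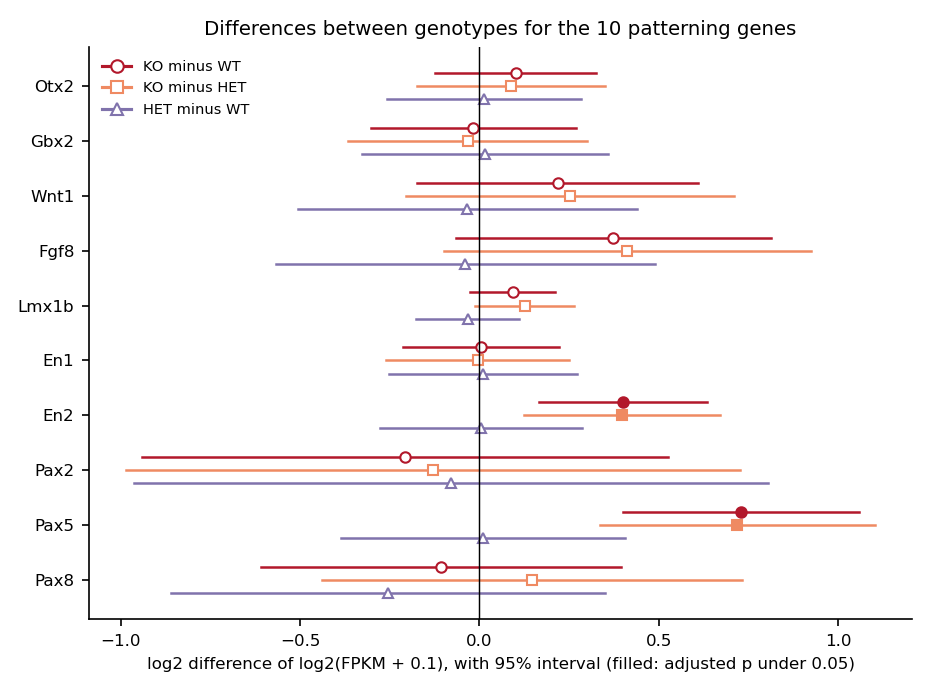
Differences in log2(FPKM + 0.1) between genotypes for the 10 patterning genes, with 95% intervals, for KO minus WT, KO minus HET and HET minus WT. The points of Pax5 (0.73 and 0.72) and En2 (0.40 and 0.40) in KO against WT and KO against HET are the ones past the adjusted p of 0.05.

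The ear shares Pax2 and Pax8 with the border, and the thyroid shares Pax8. Of 7 tested genes of the inner ear, 2 were lower in KO than in WT heads and 0 higher: Tecta, a protein of the tectorial membrane, by -0.74 (adjusted p = 0.000581), and Fbxo2, an F-box protein, by -0.47 (adjusted p = 0.0362, but 0.141 without KO1 and KO2, and lost without any 1 of WT1 to WT4, KO1, KO2 or KO4). For comparison, 5.61% of all tested loci fell against WT. No ear gene passed in KO against HET or in HET against WT. The list's median difference was -0.235 for KO against WT, -0.215 for HET against WT and -0.014 for KO against HET. Of the 7 differences in HET against WT, 0 were above 0, so the ear list was low in HET heads too. The summed ear level was 21.4 to 47.1 FPKM in KO, 34.7 to 41.7 FPKM in HET and 43.9 to 54.1 FPKM in WT libraries. Oc90, an otoconial protein, had 2.04 FPKM in KO2, the library lowest for Pax2 and Pax8, 15.2 to 21.6 FPKM in the other KO libraries, and 19.4 to 28.1 FPKM in WT libraries. In the thyroid list 1 of 3 tested genes was higher, Tshr, the thyrotropin receptor (0.95, adjusted p = 0.0128, but -0.45 after quantile normalization), and the summed level was 3.08 to 4.57 FPKM in KO, 3.26 to 6.11 FPKM in HET and 3.30 to 3.84 FPKM in WT libraries. Their part in the values of Pax2 and Pax8 was not tested.

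**Figure D3:**
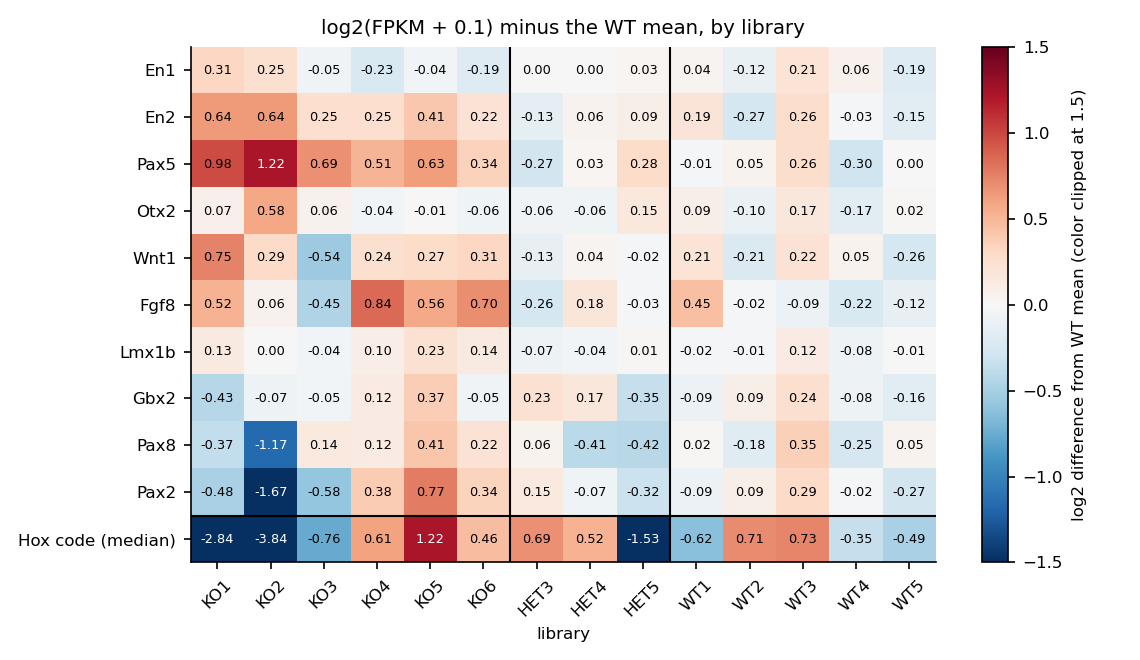
log2(FPKM + 0.1) minus the WT mean for each patterning gene and library, with the median over the Hox code in the last line. En1, En2, Pax5 and Otx2 are high and Pax2, Pax8 and the Hox code low in KO2, and KO1 has a Hox code of -2.84.

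Some pairs of the genes varied together within genotypes, and no grouping of the genes was computed. Beside En1 and En2, the deviations of Pax2 and Pax8 had a Pearson r of 0.86 over 14 libraries and 0.46 over 12 without KO1 and KO2, and those of Pax5 and Otx2 had 0.84 and 0.79. Pax2 ran against Otx2 (-0.76, but -0.23 without KO1 and KO2) and against Pax5 (-0.67 and -0.20). Pax2 and Gbx2 had 0.55 and 0.71. Leaving out KO1 and KO2 moved Pax2 and Wnt1 from 0.10 to 0.77, Pax2 and Lmx1b from 0.64 to 0.73, and Wnt1 and Lmx1b from 0.54 to 0.70. These values describe the libraries, which share their composition of tissues, and carry no test.

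The genes with the most similar deviations were taken from 11464 named loci of at least 1 FPKM. For Pax2 they were Lbx1, a factor of hindbrain and spinal interneurons (0.96), Mab21l2 (0.96) and Hoxb2, a hindbrain factor (0.95). For Pax8 they were C1ql3 (0.93), Wnt5a (0.91) and Hoxb2 (0.90), and for Gbx2 Hoxb5 (0.88), the HOX cofactor gene Pknox1 (0.87) and Hoxc4 (0.86). Without KO1 and KO2 the values for Pax8 were 0.70, 0.67 and 0.57, and those for the genes most similar to the other 9 ranged from 0.70 to 0.97. Hoxb2 had 0.511 FPKM in KO2 against 3.6 to 8.8 FPKM in the other KO libraries. For Pax5 they were Camsap1, which binds microtubule ends (0.92), Pax7, a dorsal midbrain factor (0.88), and Bbs9 (0.88), and for Otx2 Arnt2 (0.92), Unc13b (0.91) and Camsap1 (0.90). For En1 they were Cipc (0.90), Mycl (0.89) and Fgf15 (0.88), and for En2 En1 (0.87), RP23-226D9.5 (0.86) and Fgf15 (0.85). For Fgf8 they were Palm3 (0.94), AC124550.3 (0.93) and Med26, a Mediator subunit (0.93), for Wnt1 Trmt61a (0.96), Zfp341 (0.96) and Dpp9 (0.95), and for Lmx1b Trim62 (0.92), Tfap2a (0.86) and Smim4 (0.85). Each value is among the 3 highest over the 11464 loci for its gene, so it is high by selection and carries no test.

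In the FGF list, 2 of 15 tested genes were higher in KO than in WT heads and 0 lower. Its median difference was -0.02, beside -0.0019 over all loci. In KO against HET its median was -0.04, beside 0.015, with 7 of 15 differences above 0. Over all tested loci, 19% were higher and 5.61% lower in KO against WT, and 17.9% and 4.36% in KO against HET. These shares also stand beside the list counts below. Fgf15, an FGF of the midbrain and hindbrain, had 20.6, 22 and 27 FPKM in KO heads, 20, 21.1 and 21.4 FPKM in HET heads, and 19.9, 18, 21.5, 17.9 and 17.2 FPKM in WT heads (0.29, SE 0.08, adjusted p = 0.0114, limma). Fgf17, an FGF of the isthmus, averaged 4.86 FPKM in KO, 3.65 FPKM in HET and 3.67 FPKM in WT heads (0.40, adjusted p = 0.0105, but 0.055 without KO1 and KO2). In KO against HET the higher genes were 3 of 15: Fgf17 (0.40, adjusted p = 0.0282), Cnpy1, which promotes FGF receptor signalling in zebrafish (0.70, adjusted p = 0.0322), and Dusp6, an ERK phosphatase induced by FGF (0.27, adjusted p = 0.0486). Without HET3 or without HET4 none of the 3 passed, and other single libraries also decided these calls (KO2 or KO4 for Fgf17, KO2, KO5 or KO6 for Cnpy1, and WT1, WT2, WT4, WT5, KO1, KO3, KO4 or KO5 for Dusp6). Without KO1 and KO2 together Fgf17 lost its call against HET (0.33, adjusted p = 0.0909). With the replicate block none of the 3 passed, and Dusp6 passed under 11 of 26 alternatives. Differences to HET were -0.08, -0.17 and -0.25 for Spry1, Spry2 and Spry4, and -0.11 and 0.02 for Etv5 and Etv4. None of these passed.

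In the WNT list, 0 of 19 genes passed in KO against WT by limma, with a median of 0.02. The smallest p belonged to the co-receptor Lrp6 (0.16, adjusted p = 0.061) and the receptor Fzd3 (0.23, adjusted p = 0.0845). Among the other midbrain and anterior hindbrain factors 1 of 11 was higher, Pax3, a dorsal neural tube factor (12 FPKM in KO, 11 FPKM in HET and 10.6 FPKM in WT heads, 0.17, adjusted p = 0.0402), which lost its call without KO1 and KO2 (adjusted p = 0.063) and without any 1 of WT1, WT2, WT4, WT5, HET4, KO1, KO4, KO5 or KO6. In KO against HET the list's higher gene was Irx2, an Iroquois factor (0.29, adjusted p = 0.0312), a call lost without any 1 of HET3, HET4, KO4 or KO5. Irx2 averaged 20.8 FPKM in KO, 16.9 FPKM in HET and 19.9 FPKM in WT heads. Its difference between KO and WT was 0.06 (adjusted p = 0.657, limma). The list's median was 0.12 in both comparisons.

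Among genes of the midbrain floor and dopamine neurons, 2 of 13 tested were higher in KO than in WT heads and 0 lower. All tested loci had 19% higher and 5.61% lower. The list's median difference was 0.05, with 7 of 13 above 0. Corin (-0.21, adjusted p = 0.398, limma) and Foxa1 (0.05, adjusted p = 0.662) of the same list did not pass. Shh, the floor plate ligand, had 4.49, 6.13 and 7.07 FPKM in KO heads, 3.76, 4.78 and 4.74 FPKM in HET heads, and 4.39, 4.22, 4.47, 4.34 and 4.37 FPKM in WT heads, so KO and WT did not overlap. Its difference was 0.43 (SE 0.10, adjusted p = 0.0058, limma) to WT and 0.41 (adjusted p = 0.0218) to HET, the second lost without HET3. The locus of Ddc, an enzyme of dopamine and serotonin synthesis, which also holds Fignl1, differed by 0.18 (adjusted p = 0.0212), a call lost without WT1, WT2 or KO4. Th, the rate-limiting enzyme of dopamine synthesis, had 3.84 FPKM in KO, 3.85 FPKM in HET and 3.83 FPKM in WT heads. Of 6 tested genes of serotonin neurons 1 was higher, Gata2 (0.20, adjusted p = 0.0338), and it lost its call without KO1 and KO2 (0.14, adjusted p = 0.135) and without any 1 of WT2 to WT5, KO1, KO2 or KO6.

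Of 11 genes of the cerebellum and rhombic lip, 1 was higher in KO than in WT heads and 0 lower. Zic4, a zinc-finger factor of the dorsal midline and cerebellum, had 15.1, 19.8 and 23.5 FPKM in KO heads, 12.52, 11.2 and 11.6 FPKM in HET heads, and 15, 11.3, 15.9, 10.6 and 11.2 FPKM in WT heads (0.59, SE 0.12, adjusted p = 0.00167, limma). Its difference to HET was 0.69 (adjusted p = 0.00179). The locus with Kirrel2 and Aplp1 was lower in KO than in HET heads (-0.32, adjusted p = 0.04), a call lost without any 1 of the HET libraries, WT1, WT2, KO4 or KO6. Of 7 genes of neural progenitors and neurons 1 was higher in KO than in WT heads, the locus with Sox2, a progenitor factor (0.23, adjusted p = 0.0469), which lost its call without KO1 and KO2 (adjusted p = 0.151) and without any 1 of WT2, WT4, WT5, the HET libraries, KO1, KO2, KO4 or KO6.

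Forebrain, retina and Hox code genes held no call in KO against WT by limma, of 13, 10 and 10 tested. Their medians were -0.05, 0.07 and -0.99, the last with SEs of the HOX loci of up to 1.57. The smallest p in the forebrain list belonged to Eomes (-0.27, adjusted p = 0.403) and the Dlx1 locus (-0.13, adjusted p = 0.36), and the smallest in the retina list to Vax2 (-0.37, adjusted p = 0.0992). In the Hox code, the locus with Hoxd3 and Hoxd4 had a difference of -1.04 (adjusted p = 0.486). In HET against WT no gene of any list passed.

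**Figure D4:**
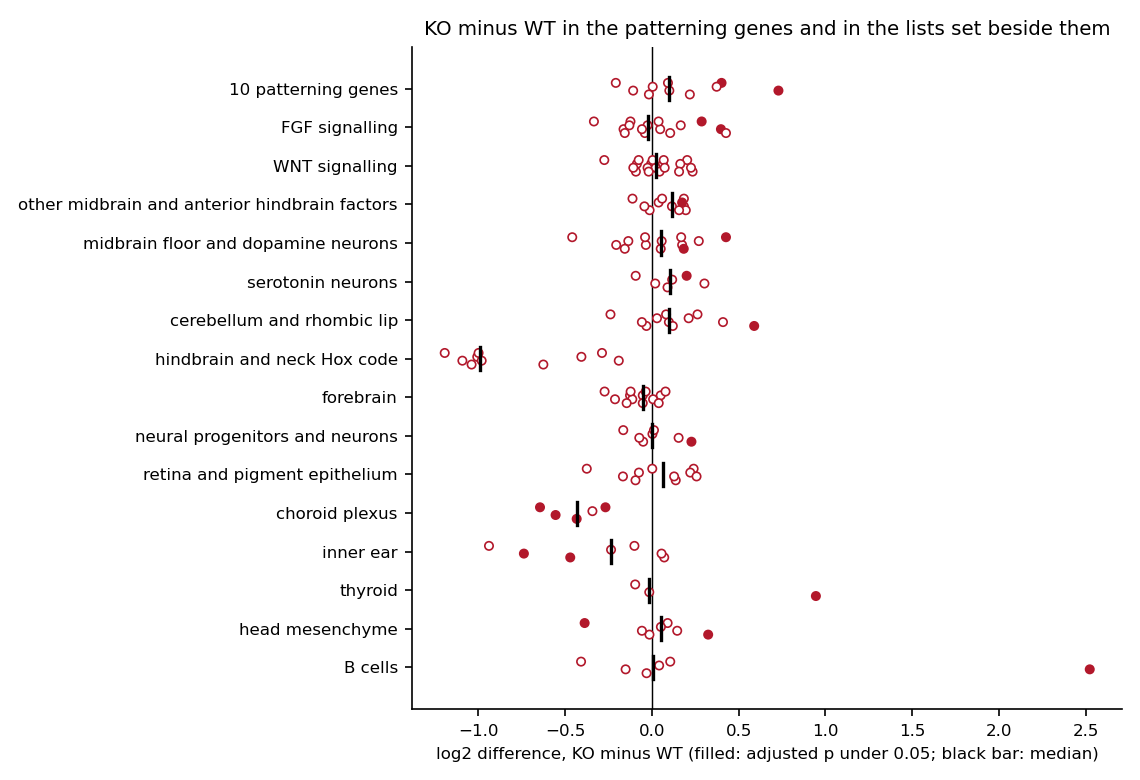
Differences in log2(FPKM + 0.1) of KO minus WT for the 10 patterning genes and for the genes of each list set beside them, with the median as a black bar and filled points past an adjusted p of 0.05. The Hox code has the lowest median, -0.99, with no filled point, and the choroid plexus has 4 filled points below 0.

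Loci near the 10 genes held several RNAs of low level that were higher in KO heads. Neighbours were loci whose listed range came within 10 kb of the listed range of a gene's locus. Several loci often share 1 listed range, and those of Otx2 and Pax2 run far past the gene, so 5 of 54 neighbours lay wholly more than 10 kb from the annotated gene and 36 had a range that reached past that distance. Of the 54 loci 20 were tested, 2 of them wholly beyond 10 kb of the gene, and 5 were higher in KO than in WT and 0 lower, a share close to the background of 19%. The same counts held in KO against HET, and limma called 0 in HET against WT. 4 of the 20 carried no gene name, and 3 of these were among the 5, beside 65.7% of 2004 tested unnamed loci in all. Those 3 met the filter of 0.5 FPKM through KO libraries alone. A locus near 0 in WT and HET heads is tested only when KO is high, so such shares partly follow from the filter. Among all 15 unnamed neighbours the KO mean lay above the WT mean, as it did at 76.9% of the 12190 unnamed loci that were above 0 in KO or WT heads. NEXT is known to target RNAs that start upstream of genes, but whether it targets these loci was not tested. Of the called neighbours, that of En1 lies upstream, those of En2 and Wnt1 downstream, and those of Pax2 and Gbx2 within the listed range.

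An unnamed plus-strand locus ended 259 bases upstream of En1 (chromosome 1, 120600659 to 120602158), beyond the En1 promoter sequence shown above. It had 0.354, 0.597 and 0.682 FPKM (lowest, median and highest) in KO heads, 0.0474, 0.0134 and 0 FPKM in HET heads, and 0.0573, 0.0524, 0.147, 0.0271 and 0.00885 FPKM in WT heads. Every KO library stood above every HET and WT library. The difference was 2.13 (SE 0.25, adjusted p = 4.54e-06, limma) to WT and 2.49 (adjusted p = 5.5e-06) to HET, while En1 itself differed by 0.00. The locus met the filter of 0.5 FPKM in at least 3 libraries through KO libraries alone. It was tested because KO was high, so these p-values are no independent support.

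An unnamed plus-strand locus 2511 bases downstream of En2 (chromosome 5, 28174678 to 28176383) had 0.644, 1.06 and 1.33 FPKM in KO heads, 0.0565, 0.0944 and 0.0318 FPKM in HET heads, and 0.111, 0.0477, 0.0449, 0.0574 and 0.0603 FPKM in WT heads. KO and the other genotypes did not overlap, with a difference of 2.73 (SE 0.22, adjusted p = 7.99e-08) to WT. Whether it continues the En2 transcript cannot be seen in these tables. An unnamed locus listed within the range of Pax2, of no known strand, averaged 0.488 FPKM in KO, 0.119 FPKM in HET and 0.0481 FPKM in WT heads (1.96, adjusted p = 0.000147). This call and that of the locus upstream of En1 were lost after quantile normalization. The loci downstream of En2 and in the Pax2 range also met the filter through KO libraries alone, and the same limit holds for their p-values.

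Among named neighbours, RP23-278C10.8, in a listed range shared with other loci that starts 9939 bases downstream of Wnt1, averaged 2.11 ± 0.751 FPKM in KO, 0.811 ± 0.160 FPKM in HET and 0.676 ± 0.151 FPKM in WT heads, each with its SD (1.48, SE 0.20, adjusted p = 2.43e-05, limma). RP23-118M14.1, on the plus strand within the range of Gbx2, averaged 0.717 FPKM in KO, 0.379 FPKM in HET and 0.413 FPKM in WT heads (0.65, adjusted p = 0.0198), a call lost under 6 of 25 alternatives, among them leaving out WT2, WT4 or WT5, and turned to -0.47 by quantile normalization. WT1, at 0.534 FPKM, was its only library outside KO with at least 0.5 FPKM, so it too met the filter through KO. Otx2os1, an antisense RNA of Otx2, averaged 2.47 FPKM in KO, 2.11 FPKM in HET and 1.82 FPKM in WT heads and did not pass (0.42, adjusted p = 0.0796).

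**Figure D5:**
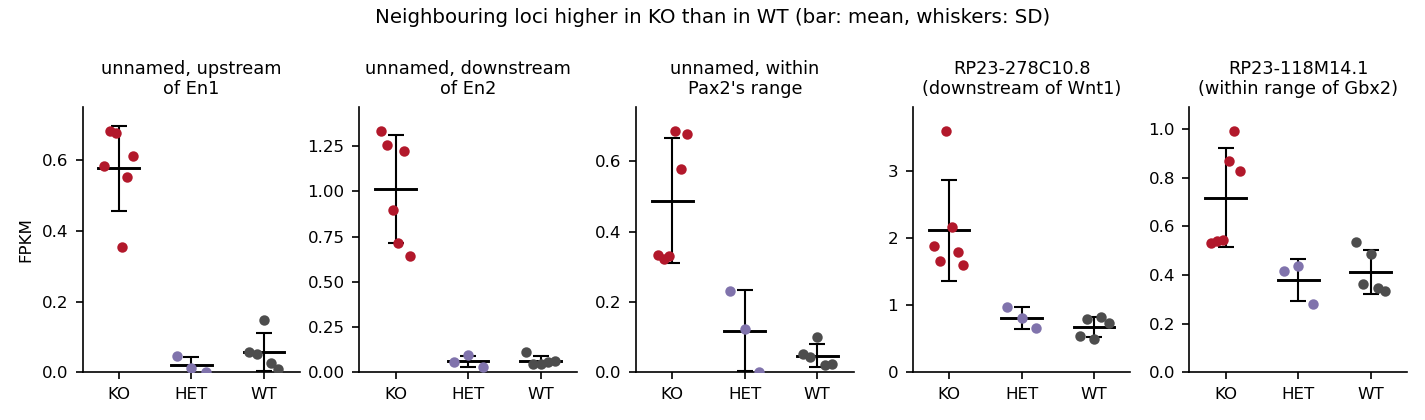
FPKM in each library of the 5 loci near the patterning genes that were higher in KO than in WT heads, with the mean as a bar and the SD as whiskers. All KO libraries lie above all HET and WT libraries in the first 4 panels, and KO and WT overlap for RP23-118M14.1.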

How the data were processed

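Per the submitters' processing notes, the tools were bcl2fastq, FastQC 0.10.0, TopHat2 2.1.0, Partek and Cuffdiff, with build mm10. The authors deposited FPKM values per locus and library, and a quantile-normalized log2 matrix that is blank where the FPKM is 0. No counts were used, and no source used here states the strand setting. Loci on the members' chromosomes are listed in runs whose single-name loci are 99.1% plus strand and 98.8% minus strand, from which strand was read. Gene coordinates are from GENCODE M21. Every column was matched (0 unmatched).

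Values were analysed as log2(FPKM + 0.1), a scale that understates changes of low loci. Loci with at least 0.5 FPKM in at least 3 libraries were tested by limma-trend (limma 3.58.1, R 4.3.3), 1 fit of all 14 libraries, with Benjamini-Hochberg adjustment at 0.05. The procedure was tested on simulated data. Python 3.11.15, numpy 2.4.6, pandas 2.3.3 and matplotlib 3.10.9 were used. Precision is limited by the number of libraries. Sex, used only as an alternative covariate, was read from the RNA.

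Members and lists were chosen with earlier results of these data known. Named were the members, Zcchc8, the 3 most similar named loci of at least 1 FPKM per member, each list gene past the threshold (otherwise the 2 with the smallest p), and called loci whose listed range came within 10 kb of that of the member's locus. Some genes of the lists are not reported here. Alternatives were pseudocounts of 0.5 and 1, other filters, scalings, a replicate block, library weights, fits of the compared groups, sex, leaving out each library and, chosen after seeing the data, leaving out KO1 and KO2.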

Additional observations from a re-analysis of the deposited data

Results flagged for a closer look

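In 2 of 20 groups of libraries examined over the 10 genes, the highest or lowest library stood far from the others, where chance gives about 1 in 20. Otx2 had 47.6 FPKM in KO2, and its gap to the next KO library took 0.829 of the range of the KO libraries. Fgf8 had 2.81 FPKM in WT1, and its gap to the next WT library took 0.742 of the range of the WT libraries.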

How the results depend on the processing

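In KO against WT, 2 of the 10 genes were called in all planned settings except library weights (3) and the authors' matrix (5, with En1, Otx2 and Lmx1b, where the median of all loci shifts by 0.20). Leaving out each library in turn gave 2 to 3, and leaving out KO1 and KO2 together gave 1. In KO against HET the count of 2 became 1 with no filter, a mean of at least 1 FPKM, a common median or the replicate block, and 4 in the authors' matrix or with library weights, and it ranged from 0 to 3 with each library left out. HET against WT stayed at 0. With 26 alternatives for 10 genes and 3 comparisons, 678 of 780 values kept both their direction and their side of the threshold.

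Of the values that were called before or after the change, quantile normalization turned the sign of RP23-358F24.3 (-1.16), Ddn (-1.16 to WT and -1.18 to HET), RP23-118M14.1 (-0.47 and -0.42), RP23-131O4.11 (-1.16), Tshr (-0.45), the unnamed locus in the Pax2 range (-0.16 to HET) and the locus with Ddn and RP23-278C10.3 (-0.76 to HET). Among values called in neither setting it turned, among others, Wnt1 (-0.43 to WT and -0.44 to HET) and Gm26644 (-0.84 and -0.99). The authors' matrix turned the sign of Clic6 (0.16 to WT, 0.054 to HET) and En1 (0.35 to HET). The cause was not tested. Over all loci, the KO against WT test called 3463 up and 1022 down, against 2338 and 3801 after quantile normalization, 6495 and 275 of 16421 in the authors' matrix, and 1248 and 631 of 15354 with the filter on the mean. The same 4 settings gave, for KO against HET, 3265 and 794, 2092 and 3256, 4147 and 216, and 1132 and 452.

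Same-numbered libraries of different genotypes had correlations of deviations between -0.114 and 0.10, so the numbers were not taken to pair them. With the replicate block 3843 loci were called in KO against WT, against 4485 without, and 1 of the 10 genes in KO against HET. Depth is unknown, so values near 0 limit neighbours most.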

Other observations

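Genes of the choroid plexus, which arises beside the rhombic lip, were lower in KO heads. Of 5 tested genes, with a median log2 difference of -0.43 against WT heads, 4 were lower in KO than in WT heads and 0 higher, and the same count held in KO against HET. Over all tested loci 5.61% were lower in KO against WT and 4.36% in KO against HET. Ttr, the thyroid hormone carrier of the choroid plexus, averaged 75.1 FPKM in KO, 116 FPKM in HET and 108 FPKM in WT heads (-0.55, adjusted p = 0.0121, limma). Kcnj13, a potassium channel, averaged 0.609 FPKM in KO, 0.986 FPKM in HET and 0.986 FPKM in WT heads (-0.64, adjusted p = 0.00676). The Aqp1 locus fell by 0.43 (adjusted p = 0.000214) and Clic6 by 0.27 (adjusted p = 0.0274). Clic6 lost its call without KO1 and KO2 and without any 1 of WT1, WT2, WT3, WT5, KO1 or KO2, and turned to 0.16 in the authors' matrix, where the Aqp1 locus lost its call too. Against HET, Ttr, Kcnj13 and Clic6 lost their calls without HET3, and Kcnj13 and Clic6 also without HET5, with the replicate block and in the fit of only the compared groups. Clic6 lost it too without KO2 and without KO1 and KO2 (-0.21, adjusted p = 0.0722).

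Of 7 tested genes of the head mesenchyme, KO against WT called 1 up and 1 down. The Foxc1 locus averaged 13.5 FPKM in KO, 9.58 FPKM in HET and 10.8 FPKM in WT heads (0.32, adjusted p = 0.00578, limma). Col1a2, a chain of type I collagen, averaged 169 FPKM in KO, 218 FPKM in HET and 220 FPKM in WT heads (-0.39, adjusted p = 0.000122).

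An unnamed locus downstream of Gbx2 (chromosome 1, 89922163 to 89922434) had 7.75 FPKM in KO3 and was listed at 0 in the other 13 libraries.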
